A study of Mus musculus with 9 samples.

Results

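*Mucl1*, *Mucl2*, *Prol1* and *Smr2* are genes for small secreted proteins of mouse salivary glands. They were taken by gene name from the normalized table, where these 4 genes are among 17562 rows, and their read counts were taken by the same Ensembl identifiers from the 48733 rows of the count table. RNA was sequenced from the submandibular glands (SMGs) of 9 adult male mice on a C57BL/6 background, 4 wild type (WT) and 5 with both *Hs3st3a1* and *Hs3st3b1* deleted (DKO), with 1 library per mouse. The question was how losing these enzymes, which add 3-*O*-sulfate groups to heparan sulfate, alters gene expression in the gland. In DKO mice *Hs3st3a1* carries a frameshift deletion made by a zinc finger nuclease in exon 1, and *Hs3st3b1* is replaced by a knockout allele with a LacZ cassette. The deletion is present in every tissue. Of the 3 founder lines kept, the one that gave these glands is not given in the sources used here, nor are ages in weeks. The labels give the sex, the genotype and a number for each gland, and the meaning of that number is not given. They name no litter or batch, so the spread within a group holds both animal and technical differences.

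Saliva is lubricated by glycoproteins whose long serine and threonine-rich stretches are covered with O-linked sugars. In the rodent SMG the acinar cells make most of these products, while the granular duct cells make growth factors and kallikreins. *Prol1*, also named *Muc10*, encodes the main apomucin of the mouse SMG, and *Mucl1* and *Mucl2* (also *Spt2* and *Spt1*) encode short mucin-like salivary proteins. *Smr2* belongs to the submaxillary gland androgen-regulated genes of the proline-rich protein cluster.

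In GENCODE M21 (GRCm38), the 4 genes form a pair on each of 2 chromosomes. *Mucl1* (ENSMUSG00000060311, chr15:103751919-103755469) and *Mucl2* (ENSMUSG00000036925, chr15:103895855-103899312) both lie on the minus strand, 140.4 kb apart. Of the 3 genes annotated between them, 1 has a row in the count table, with 0 counts in all libraries. *Mucl2* is the last protein-coding gene of the chromosome. On the other side of the pair the nearest protein-coding gene is *Glycam1*, 186.8 kb away, also with 0 counts. *Smr2* (ENSMUSG00000029281, chr5:88086556-88109053) and *Prol1* (ENSMUSG00000064156, chr5:88317312-88328814) lie on the plus strand, 208.3 kb apart, and none of the 7 genes between them had more than 3 counts in a library. GENCODE calls all 4 genes protein coding, whereas RefSeq lists *Mucl1* as a transcribed pseudogene.

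*Mucl1* and *Mucl2* are close in sequence, which bears on how their reads can be told apart. The first 240 coding bases of transcripts Mucl1-202 and Mucl2-201 are shown from GENCODE M21, with the bases that differ between the 2 genes in capitals.
Mucl1: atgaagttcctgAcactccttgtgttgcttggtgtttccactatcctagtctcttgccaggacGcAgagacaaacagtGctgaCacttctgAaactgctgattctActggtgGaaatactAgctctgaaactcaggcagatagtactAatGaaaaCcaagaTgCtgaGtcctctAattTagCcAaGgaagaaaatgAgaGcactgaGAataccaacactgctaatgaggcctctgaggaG
Mucl2: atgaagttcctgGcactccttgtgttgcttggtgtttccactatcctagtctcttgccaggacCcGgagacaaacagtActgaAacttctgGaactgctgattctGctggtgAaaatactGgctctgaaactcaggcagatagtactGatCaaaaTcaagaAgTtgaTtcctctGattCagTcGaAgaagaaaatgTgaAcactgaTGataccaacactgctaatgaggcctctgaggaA
Of these 240 bases, 215 (89.6%) were identical, and over the whole coding sequences 338 of 413 bases aligned without gaps (81.8%) were identical. Among the distinct stretches of 25 bases in the *Mucl1* transcripts, 5.03% also occurred in *Mucl2*. At 50 bases 1 stretch was shared and at 75 bases 0 were. The read length and the treatment of reads with several matches are not given in the sources used here.

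The coding sequences also differ in their codons. In Prol1-201, 29.2% of the 312 codons are for threonine and 14.4% for proline. In Mucl1-202 and Mucl2-201, 24.6% and 23.9% of codons are for serine or threonine, 25.1% and 23.2% for aspartate or glutamate, and 0% and 0.725% for proline. Smr2-201 has 143 codons, of which 16.8% are for proline and 13.3% for serine or threonine. The 120 coding bases richest in proline codons, which are in capitals, show how the proline-rich pair differs.
Prol1: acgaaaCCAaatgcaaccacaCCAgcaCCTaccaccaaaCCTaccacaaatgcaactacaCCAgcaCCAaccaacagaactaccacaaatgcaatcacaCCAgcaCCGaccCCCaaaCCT
Smr2: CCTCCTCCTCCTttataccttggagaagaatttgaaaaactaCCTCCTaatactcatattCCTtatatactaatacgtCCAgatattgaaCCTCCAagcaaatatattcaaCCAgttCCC
The *Prol1* stretch, coding bases 298 to 417, holds 10 proline and 15 threonine codons, and the whole *Prol1* coding sequence matched itself at 55.2% of bases when shifted by 78 bases. The *Smr2* stretch, coding bases 232 to 351, holds 12 proline codons, several of them in runs, and 1 threonine codon.

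The libraries held 20653492 to 37870519 counts in WT and 17053747 to 34683690 in DKO, so that the widest 95% Wilson interval of a member's share was 0.0385 percentage points. These intervals cover counting error only. *Hs3st3a1* had 3 to 14 counts in WT and 0 in every DKO library, and *Hs3st3b1* had 67 to 216 in WT and 7 to 45 in DKO, which matched the labels. All 9 acinar markers were detected. *WT 1* and *DKO 1* stood apart in *Mucl1*, and *DKO 1* also in markers of the parotid gland, and values that rest on these libraries are given with and without them below.

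The 4 genes together took 18.6% to 26.4% of all read counts in WT and 26.3% to 36.1% in DKO. In WT they made up 21.8%, 26.4%, 18.6% and 23.2% of replicates 1 to 4, and in DKO 36.1%, 27.4%, 30.0%, 26.3% and 27.7% of replicates 1 to 5. Nearly all of this came from *Mucl2* and *Prol1*, except in *WT 1* and *DKO 1*, where *Mucl1* added 4.03% and 9.83%. The genes ran over a very wide range. *Mucl2* had the most counts of any gene in all 9 libraries and *Prol1* ranked 3 to 6, while *Smr2* ranked 11617 or lower. Among WT means the genes next to them were *Car6*, a secreted carbonic anhydrase of acinar cells, at 8.07% ± 1.94 (SD, n = 4), and the granular duct kallikrein *Klk1b26* at 3.95% ± 1.26 (SD, n = 4).

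**Figure D1:**
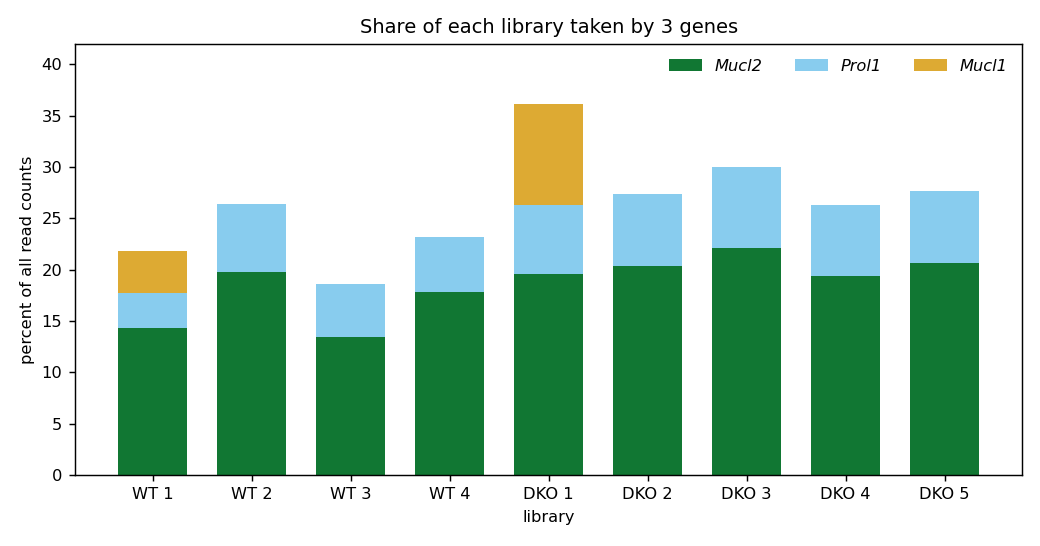
Stacked bars show the percent of all read counts (vertical axis, from 0) taken by *Mucl2*, *Prol1* and *Mucl1* in each of the 9 libraries. The *Mucl1* segment is visible in WT 1 (4.03%) and DKO 1 (9.83%), and *Smr2* is too low to draw.

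Normalized levels are given as CPM, the count relative to the TMM-scaled library size. Per kb of exon sequence, *Mucl2* was the most abundant of the 4 in each library. Its mean was 139359 CPM per kb in WT, against 39485 for *Prol1* and 0.562 for *Smr2*. In DKO the corresponding levels were 217546, 68297 and 0.321 CPM per kb. The neighbouring levels in this order, *Mucl2* and *Prol1*, did not overlap: *Mucl2* ran from 107544 to 272675 CPM per kb and *Prol1* from 27726 to 88100 over the 9 libraries. *Mucl1* came second in *WT 1* (46648 CPM per kb) and *DKO 1* (125384) and between 1.24 and 6.09 CPM per kb in the other 7 libraries. In these 7 it was above *Smr2* in each library.

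Across all 13842 genes tested with edgeR's quasi-likelihood test and Benjamini-Hochberg adjustment, 87 (0.629%) were called at an adjusted p under 0.05, 23 higher in DKO (0.166%) and 64 lower (0.462%), and 0 of the 4 genes were among them. At an unadjusted p under 0.05 edgeR gave 2006 genes, *Prol1* among them. With the non-legacy form of edgeR's quasi-likelihood test the unadjusted p of *Prol1* was 0.131. With DESeq2, the tool the study names, 616 genes (4.45%) were called, 245 higher in DKO (1.77%) and 371 lower (2.68%), and 2 of the 4 genes, *Mucl2* and *Prol1*, were among those higher. The study also required a 2-fold change, which was not applied here. The DESeq2 log2 fold changes of *Mucl2* (0.65) and *Prol1* (0.80) lay below that cut. *Prol1* was the 1 gene of the 4 whose groups did not overlap in normalized CPM, against 6% of all genes tested, 2.49% with DKO above WT and 3.51% with DKO below.

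*Mucl2* counts were 2946884, 4584890, 5091099 and 3814695 in WT and 6791114, 5426357, 6224258, 4413780 and 3528272 in DKO. As a share of all counts this was 14.3%, 19.8%, 13.4% and 17.8% in WT and 19.6%, 20.3%, 22.1%, 19.4% and 20.7% in DKO. The groups overlapped, with *WT 2* inside the DKO range and 3 of 5 DKO libraries above all WT libraries. The mean share was 16.3% ± 2.98 over the WT libraries (SD, n = 4) and 20.4% ± 1.07 over the DKO libraries (SD, n = 5), a difference of 4.09 percentage points (exact two-sided permutation test, p = 0.0238, unadjusted). In normalized CPM the means were 145769 ± 28897 and 227553 ± 44118, and 4 of 5 DKO libraries lay above all WT libraries. The log2 fold change of *Mucl2* was 0.64 (SE 0.30, edgeR adjusted p = 0.356, DESeq2 adjusted p = 0.0117). The share test for *Mucl2* passed 0.05 with 1 library left out only where that library was *WT 2*. Leaving out any other gave p between 0.0536 and 0.0857 in the same exact permutation test.

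*Prol1* counts were 722376, 1526667, 1949224 and 1164769 in WT and 2322838, 1882630, 2235973, 1582286 and 1194660 in DKO. Its share was 3.50%, 6.59%, 5.15% and 5.43% in WT and 6.70%, 7.06%, 7.93%, 6.95% and 7.01% in DKO. All 5 DKO libraries were above all WT libraries, the closest being *WT 2* and *DKO 1*. The mean share was 5.17% ± 1.28 over the WT libraries (SD, n = 4) and 7.13% ± 0.468 over the DKO libraries (SD, n = 5), a difference of 1.96 percentage points, with an exact two-sided permutation p of 0.00794, the smallest that 126 splits can give. Normalized CPM averaged 45921 ± 11058 in WT and 79430 ± 15821 in DKO, or 1.73-fold higher. The log2 fold change was 0.79 (SE 0.28, edgeR adjusted p = 0.213, DESeq2 adjusted p = 0.00273). With each library left out in turn the difference in share stayed between 1.40 and 2.43 percentage points. The exact permutation p was 0.0179 without a WT library and 0.0286 without a DKO library. Since the groups stay apart whichever library is left out, these p-values were fixed at the smallest the test can then give.

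**Figure D2:**
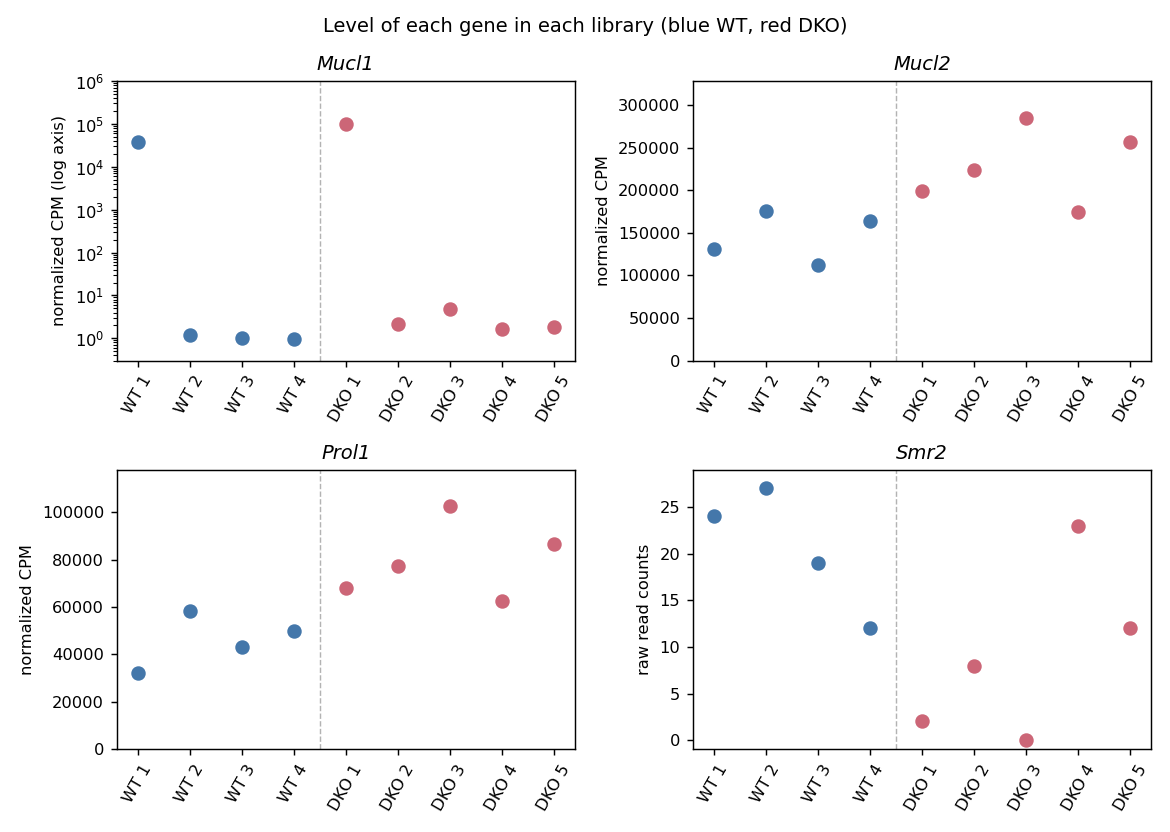
Each point is 1 library, WT in blue and DKO in red. *Mucl1* is drawn as normalized CPM on a log axis, *Mucl2* and *Prol1* as normalized CPM on axes from 0, and *Smr2* as raw read counts. *Prol1* in DKO lies above WT in all 5 libraries, and *Mucl1* is high in WT 1 and DKO 1.

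The size of these fold changes depended on the scaling. TMM, the scaling that sets most genes to a ratio of 1 between libraries, gave factors of 1.09 to 1.20 in WT and 0.774 to 1.11 in DKO, and the median log2 fold change over all genes was 0.01. With library size alone that median was -0.28, and the log2 fold changes were 0.32 for *Mucl2* (SE 0.24, edgeR adjusted p = 0.392) and 0.46 for *Prol1* (SE 0.24, edgeR adjusted p = 0.237). Relative to the median of all genes, both genes thus lay above it under either scaling. Scaling without the 4 genes left the values at 0.64 and 0.79.

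**Figure D3:**
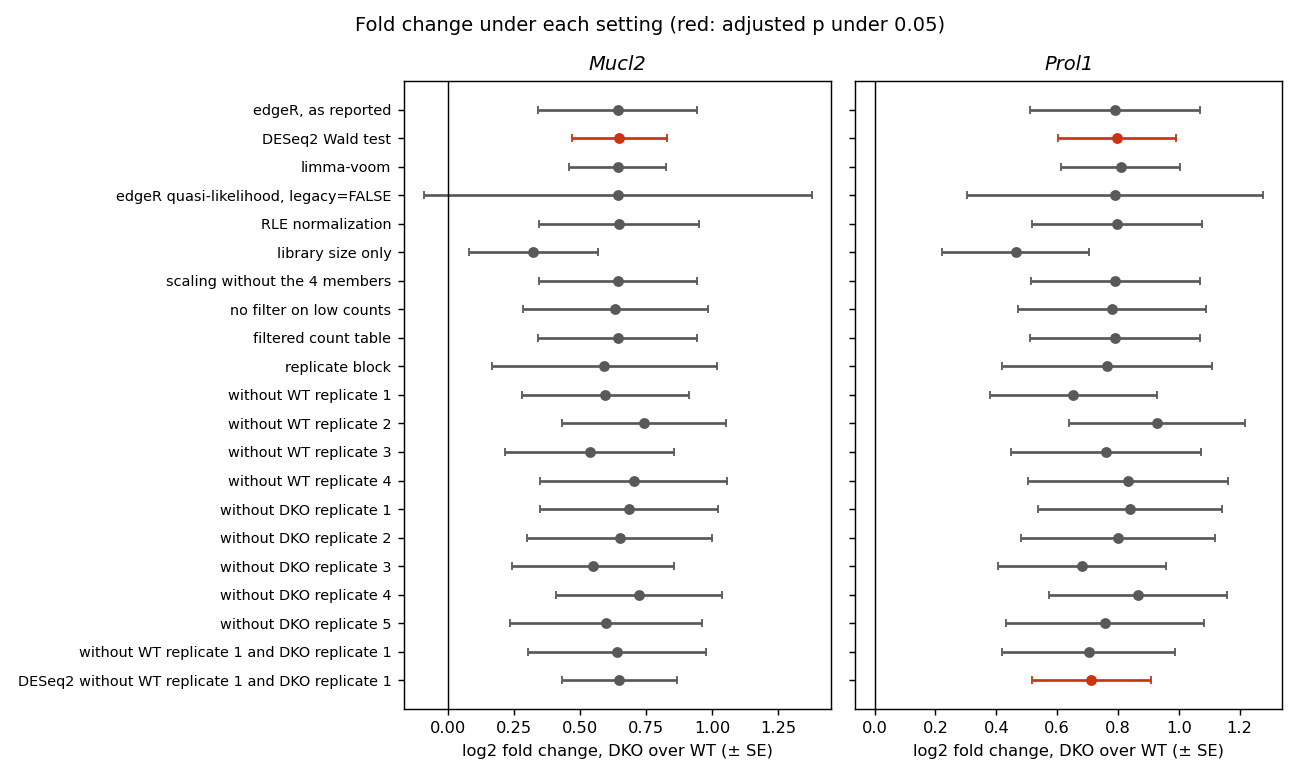
Points are the log2 fold change of DKO over WT for *Mucl2* (left) and *Prol1* (right) under each processing setting, with bars of 1 SE, and red marks an adjusted p under 0.05. All values are above 0, the lowest being 0.32 and 0.46 with library size only, and the red points come from DESeq2.

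*Mucl2* and *Prol1* kept a nearly fixed ratio in DKO. There were 4.08, 3.00, 2.61 and 3.28 *Mucl2* counts for each *Prol1* count in WT replicates 1 to 4 and 2.92, 2.88, 2.78, 2.79 and 2.95 in DKO replicates 1 to 5. The DKO values sat close together inside the WT range, which was set by *WT 1* at the top and *WT 3* at the bottom. Over the 6 pairs of genes, no ratio differed between genotypes after adjustment. The *Mucl2* to *Prol1* difference was -0.16 on the log2 scale (exact permutation p = 0.238, 0.476 after Benjamini-Hochberg adjustment over the pairs). Without *WT 3* it was -0.26 (exact permutation p = 0.0179, not adjusted). The other 5 pairs gave unadjusted exact permutation p-values of 0.103 or more.

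**Figure D4:**
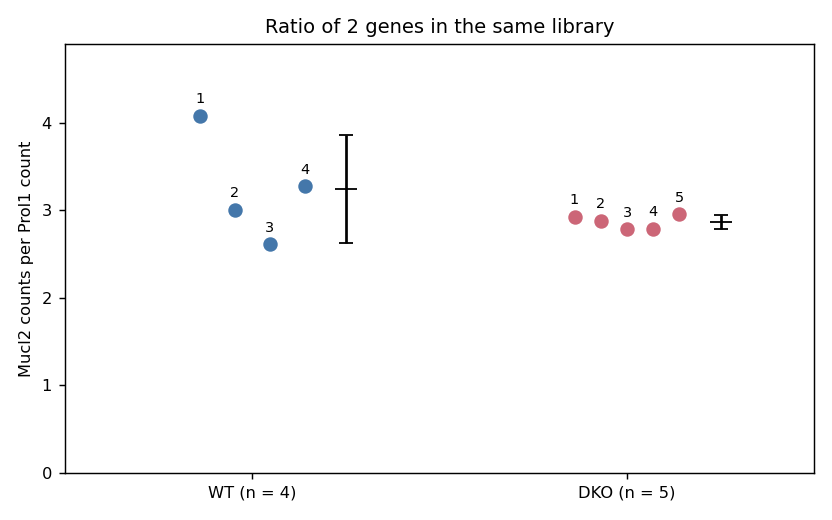
Points are *Mucl2* read counts per *Prol1* read count in each library, labelled by replicate number, and black bars are the group mean ± SD. The 5 DKO values lie between 2.78 and 2.95, inside the WT range of 2.61 to 4.08.

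The 250 bases before the RefSeq start sites (GRCm38.p6) of *Mucl2* and *Prol1* are shown, with motif matches in capitals. The *Mucl2* stretch is chr15:103899313-103899562 on the minus strand, and the *Prol1* stretch is chr5:88317062-88317311 on the plus strand.
Mucl2: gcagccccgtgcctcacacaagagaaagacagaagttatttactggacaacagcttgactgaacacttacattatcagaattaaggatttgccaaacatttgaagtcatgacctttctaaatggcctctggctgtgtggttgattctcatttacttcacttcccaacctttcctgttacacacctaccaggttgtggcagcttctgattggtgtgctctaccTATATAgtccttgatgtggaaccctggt
Prol1: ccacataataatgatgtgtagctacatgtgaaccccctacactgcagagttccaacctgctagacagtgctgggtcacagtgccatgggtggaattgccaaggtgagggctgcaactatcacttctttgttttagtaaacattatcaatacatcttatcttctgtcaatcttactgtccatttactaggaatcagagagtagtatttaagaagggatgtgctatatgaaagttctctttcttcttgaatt
The motifs TATAAA (the usual TATA box), TATATA (another form of it), AGAACA (the core hexamer of steroid receptor elements) and CAGCTG (an E-box) were searched on both strands. Of these, only TATATA was found, in *Mucl2* from 28 to 23 bases before the start, and it overlapped no other match. Across 32851 promoters of the same length, 5.25% held TATATA, 12.4% held TATAAA, 16.1% held AGAACA and 13.0% held CAGCTG. *Smr2* held none of the 4, and *Mucl1* was not among the promoters searched.

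*Mucl1* was present at 2 distinct levels, each found in both genotypes. Its counts were 832879, 32, 46 and 23 in WT and 3410981, 53, 106, 42 and 25 in DKO. Replicate 1 of each genotype was high, and the other 7 libraries lay between 0.987 and 4.86 normalized CPM, against 37178 in *WT 1* and 99931 in *DKO 1*. Within the low level, *WT 2* to *WT 4* lay between 0.987 and 1.22 CPM and *DKO 2* to *DKO 5* between 1.66 and 4.86 CPM, so that at each level the DKO values were above the WT values. As the levels were seen in these same values, this order is given without a test. In these 2 libraries *Mucl1* ranked 5 and 3 among all genes, and in the others 7827 or lower. The difference in mean share was 0.959 percentage points (exact two-sided permutation test, p = 0.730) and the log2 fold change was 1.10 (SE 3.17, edgeR adjusted p = 0.920). Leaving out *DKO 1* turned the log2 fold change to -11.78 (edgeR adjusted p = 0.156) and leaving out *WT 1* made it 14.18, so a single library set the direction. DESeq2 gave no p-value for *Mucl1*.

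Set against its close relative, *Mucl1* counts equalled 28.3% of the *Mucl2* counts in *WT 1* and 50.2% in *DKO 1*. They equalled 0.000603% to 0.000904% of the *Mucl2* counts in *WT 2* to *WT 4*, and 0.000709% to 0.00170% in *DKO 2* to *DKO 5*. Relative to *Mucl2* the genotypes thus overlapped at the low level, with *DKO 5* alone below *WT 3*. Whether reads of *Mucl2* gave these few *Mucl1* counts was not tested. Where *Mucl1* was high, the *Mucl2* share lay in the lower part of the range of its genotype. It was 14.3% in *WT 1*, against 13.4% to 19.8% in the other WT libraries. In *DKO 1* it was 19.6%, against 19.4% to 22.1% in the other DKO libraries. The *Prol1* share was the lowest of its genotype in both, at 3.50% and 6.70%. With *Mucl1* reads taken out of the total, the *Mucl2* share was 14.9% and 21.7% and the *Prol1* share 3.64% and 7.43% in these 2 libraries.

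The log2 gap between the lower of *WT 1* and *DKO 1* and the highest of the other 7 libraries was 12.88 for *Mucl1*, 1.92 for the immunoglobulin segment *Igkv12-44* and 0.89 for *Myg1*. Of all genes tested, 388 (2.80%) had both of these libraries above the other 7. *Myg1*, which encodes an exonuclease, also had the profile most like *Mucl1* over the 9 libraries (Pearson r of log2 CPM 0.953), followed by *Otulin* (0.950), a deubiquitinase, and *Zfp560* (0.943). *Myg1* lies at chr15:102331709-102338139, 1413.78 kb from *Mucl1*. Its counts were 687, 385, 650 and 324 in WT and 1478, 401, 256, 358 and 199 in DKO. These correlations rest on the 2 high libraries, and the rank correlation of *Myg1* with *Mucl1* was 0.57. With genotype means subtracted the leading genes were *Tmem243* (0.958), *Zfp560* (0.956) and *Myg1* (0.953).

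In *DKO 1*, but not in *WT 1*, genes of the parotid gland were high beside *Mucl1*. The summed level of 4 parotid markers was 8070 CPM in *DKO 1*. It was 24.4 to 48.4 CPM in WT and 57.4 to 92.3 CPM in *DKO 2* to *DKO 5*, so the genotypes did not overlap without *DKO 1* either. *Bpifa2*, a parotid secretory protein, had 253648 counts in *DKO 1*, 99 in *WT 1*, the lowest of all libraries, and 186 to 1924 in the rest. *Amy1*, the salivary amylase, had 21760 counts in *DKO 1* and 155 to 1152 elsewhere. In *DKO 2* to *DKO 5*, *Bpifa2* was above WT, at 43.3 to 79.1 CPM against 4.42 to 26.5 CPM. *Amy1* went the other way, at 7.10 to 14.1 CPM against 17.3 to 25.5 CPM in WT. *Prb1* and *Prpmp5*, defining proline-rich protein genes of the parotid, had 22 and 21 counts in *DKO 1* and at most 6 elsewhere. *Smr3a*, the protein-coding gene nearest to *Smr2* on its outer side (78.0 kb), had 7191 counts in *DKO 1* and at most 1 elsewhere. Summed sublingual gland markers ran from 1.03 to 58.0 CPM in WT, highest in *WT 3*, and from 0.550 to 136 CPM in DKO, highest in *DKO 4*. In *DKO 1* they summed to 106 CPM, of which 98.9 CPM came from the marker *Dcpp1*. The marker *Muc19* had 172 counts in *WT 3*, 155 in *DKO 4*, 1 in *DKO 1* and at most 18 in the others. The part of other glands in the *Mucl1* level of *DKO 1* was not tested.

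**Figure D5:**
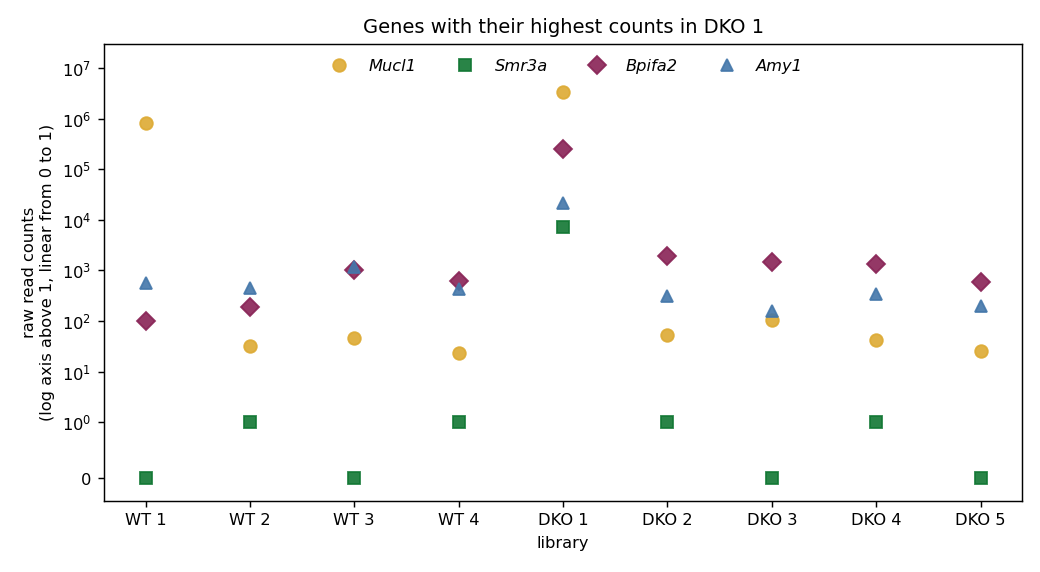
Raw read counts of *Mucl1* and of 3 other salivary genes are plotted for each library on an axis that is linear from 0 to 1 and logarithmic above. *Mucl1* is high in WT 1 and DKO 1, whereas *Smr3a* (7191 counts), *Bpifa2* (253648) and *Amy1* (21760) stand out in DKO 1 alone.

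*Smr2* was close to the limit of detection in every library. Its counts were 24, 27, 19 and 12 in WT and 2, 8, 0, 23 and 12 in DKO. The groups overlapped, with *DKO 4* and *DKO 5* inside the WT range and *DKO 3* without a read, where the limit of 3 counts allows up to 0.106 CPM before scaling. Mean normalized CPM was 0.760 ± 0.340 over the WT libraries (SD, n = 4) and 0.433 ± 0.435 over the DKO libraries (SD, n = 5). The log2 fold change was -0.87 (SE 0.75, edgeR adjusted p = 0.667, DESeq2 adjusted p = 0.718), and the exact two-sided permutation p for the share was 0.151. With 1 library left out the log2 fold change of *Smr2* ranged from -0.53 (without *DKO 1*) to -1.49 (without *DKO 4*), and it was -0.55 without *DKO 3*. With limma-voom it was -1.75 (adjusted p = 0.370). A difference between genotypes was not detectable at this depth. Per *Smr2* count, *Mucl2* and *Prol1* counts were 2.36 and 2.52 higher in DKO on the log2 scale, but these differences did not pass the exact permutation test (p = 0.111 and 0.103, both 0.333 after Benjamini-Hochberg adjustment). They rest in part on *DKO 3*, where *Smr2* enters as the added 0.5 alone, and were 1.46 and 1.61 without it.

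Genes with the profile most like *Mucl2* were *Gjb1* (r = 0.989), a gap junction protein, the small nucleolar RNA host gene *Snhg18* (0.983) and *Oit1* (0.979). Those most like *Prol1* were the sialyltransferase *St3gal1* (0.991), the phospholipid phosphatase *Plpp5* (0.989) and the transcription factor *Spdef* (0.988). After genotype means were subtracted, *Snhg18* (0.978) and *Gjb1* (0.971) with *Parl* (0.966) were nearest to *Mucl2*, and *Rab26* (0.985), *St3gal1* (0.984) and *Paip2b* (0.969) to *Prol1*. For *Smr2* the leading genes were *Chd1* (0.937), *Gm45413* (0.935) and *Ctps2* (0.925), and after subtraction *Cntnap1* (0.959) and *Sumf1* (0.955). These are correlations of log2 CPM over 9 libraries that share depth and scaling, picked as the highest of all genes tested, and they have no test.

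No gene of the mucin list was called by edgeR. All 17 listed genes had a row, 6 were tested, 4 had a positive and 2 a negative log2 fold change, and 0 passed. Their median was 0.21, against 0.01 over all genes tested. The most abundant was *Cd164*, a sialomucin, with 7304 to 15312 counts in WT and 4494 to 10334 in DKO and a log2 fold change of -0.03 (edgeR adjusted p = 0.926). *Muc13*, a transmembrane mucin, was counted 2312, 1671, 5130 and 1654 times in the WT libraries and 1517, 817, 469, 1281 and 712 times in the DKO libraries. Its log2 fold change was -1.12 (SE 0.25, edgeR adjusted p = 0.0574), and it was the 1 listed mucin that DESeq2 called (adjusted p = 0.00134). *Emcn*, the endothelial mucin, gave 0.27 (edgeR adjusted p = 0.565). *Muc3* and *Muc5ac* had 0 counts throughout.

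The proline-rich and phosphoprotein genes that flank or resemble *Smr2* and *Prol1* had few counts, apart from *Smr3a* in *DKO 1*. Of 18 listed, 16 had a row and 1, *Amtn*, an enamel matrix gene 47.3 kb beyond *Prol1*, passed the filter on low counts. *Amtn* had 9 to 18 counts in WT and 9 to 37 in DKO, with a log2 fold change of 0.76 (edgeR adjusted p = 0.371). *Csn3*, a casein gene, had at most 13 counts in a library.

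Mucins are built up by O-glycosylation enzymes, of which 23 of 32 were tested. Of these, 12 had a positive and 11 a negative log2 fold change, with a median of 0.07. By edgeR 1 was called and it was higher in DKO. This was *St3gal1*, which adds sialic acid to O-linked sugars, counted 86, 705, 380 and 261 times in the WT libraries and 1817, 2262, 4000, 1060 and 1610 times in the DKO libraries. All DKO libraries were above all WT libraries, and the log2 fold change was 2.95 (SE 0.56, edgeR adjusted p = 0.0478). This call was lost when *WT 1*, *WT 3*, *WT 4*, *DKO 2* or *DKO 5* was left out, since edgeR then called 0 of all genes tested. DESeq2 called 3, all higher in DKO, *St3gal1* together with *Galnt5* and *St3gal4*.

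Markers of the SMG cell types are given beside the levels of *Mucl2* and *Prol1*. Summed acinar markers ran from 77988 to 120219 CPM in WT and from 133932 to 262441 CPM in DKO. Most of each sum came from 2 secreted products. *Car6* had 55210 to 94178 CPM in WT and 99180 to 196666 CPM in DKO. *Pip* had 15754.5 to 31871 CPM in WT and 31976 to 63358 CPM in DKO. Each other acinar marker overlapped between the genotypes. All 9 markers had a positive log2 fold change, with a median of 0.38, and edgeR called 0 while DESeq2 called 2, *Pip* and *Car6*. Granular duct markers summed to 41502 to 79438 CPM in WT and 16520 to 34248 CPM in DKO (median log2 fold change -1.91). Of the 7, edgeR called 0, while DESeq2 called 5 lower and 1 higher, the kallikrein *Klk1* (0.58, DESeq2 adjusted p = 0.0385). Of 6 myoepithelial markers, with a median of -1.20, edgeR called 3 lower and DESeq2 all 6. The 3 edgeR calls were lost when *WT 1*, *WT 3*, *WT 4*, *DKO 2* or *DKO 5* was left out, as edgeR then called 0 genes in all. They were also lost without *DKO 1*, where edgeR called 0 genes lower. Without *DKO 3* it called 1 gene lower among all genes tested. In these whole-gland libraries fewer cells of a type and less RNA per cell cannot be told apart, and the part of the marker differences in the *Mucl2* and *Prol1* levels was not tested.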

How the data were processed

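RNA from the SMGs of 9 male mice was made into unstranded Nextera XT libraries by the authors, 1 per mouse, and read on a HiSeq2500. The submitters' processing notes name STAR 2.5.2a, DESeq2, edgeR and limma, and the builds GRCh38, GRCm38 and mm10, with no role given. The annotation and counting tool are not given in the sources used here. As deposited by the authors, 1 table holds raw read counts on 48733 rows, including 17 transgene and 7 spike-in rows (7.48e-05% of counts, left out), a second holds the counts of 17562 rows left by a filter, and the third holds signal values, these counts divided by 1 TMM-scaled library size each, from which whole reads were recovered for 100% of values within 0.05 reads. These reads are the counts of the filtered table, on which edgeR again called 87 genes.

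The counts were fitted in R 4.3.3 with edgeR 4.0.16 (TMM, filterByExpr with minimum count 10 and minimum total 15, legacy quasi-likelihood test, genotype as the single term), which left 13842 genes. All 4 genes passed the filter. Alternatives used DESeq2 1.42.0 and limma 3.58.1. Normalized CPM was computed from these counts, with TMM factors. Standard errors are the log2 fold change over the square root of F. Shares and log2 ratios of counts (0.5 added to each) were compared by exact two-sided permutation over all 126 splits of 4 against 5. Wilson intervals are at 95%, and a count of 0 is bounded at 3 counts. Similarity was Pearson r of log2 CPM with a prior count of 2. Python 3.11.15 with pandas 2.3.3, numpy 2.4.6, scipy 1.17.1 and Biopython 1.88 made the summaries. Gene models and transcripts came from GENCODE M21 and promoters from RefSeq (GRCm38.p6). The fits were tested on simulated data.

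The 4 genes and the gene lists were chosen with earlier results of these data known. Genes named besides the members are the deleted genes, those most like each member (1 is not reported here), neighbours on the chromosome, the most abundant genes, the called or most abundant genes of each list and the markers. *Igkv12-44* was named after its values were seen, as were *Galnt5* and *St3gal4*, the other genes of their list that DESeq2 called. 20 alternative settings were planned, and the ones that leave out replicate 1 of both genotypes were chosen after seeing the data.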

Additional observations from a re-analysis of the deposited data

Results flagged for a closer look

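In 9 of 28 groups of libraries, the highest or lowest library lay further from the rest than Dixon's 95% limit, where chance gives about 1 in 20, and all 9 involved *Mucl1*. The gap divided by the range of the group was 0.999994 in WT and 0.999968 in DKO for *Mucl1* in normalized CPM, and 0.999992 and 0.999977 for its percent of counts. The library that stood apart was *WT 1* and *DKO 1* respectively. For the log2 ratio of *Mucl1* to *Mucl2* counts it was 0.963 in WT and 0.923 in DKO. For the ratio of *Mucl1* to *Prol1* it was 0.985 in WT and 0.928 in DKO, and for the ratio of *Mucl1* to *Smr2* it was 0.932 in WT. These groups share the same *Mucl1* counts, so the flags are not independent of each other. No group of *Mucl2* or *Prol1* levels, shares or their ratio exceeded the limit.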

How the results depend on the processing

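Of 209 values under other settings, 165 kept their direction and side of the threshold or, for counts, stayed within 1.5 times. The number of genes called went from 87 to 616 with DESeq2, 4 with limma-voom, 357 with library size only (21 higher and 336 lower, against 23 and 64), 347 without the filter on low counts and 0 with a replicate block. With 1 library left out it ranged from 0 to 441. It was 0 without *WT 1*, *WT 3*, *WT 4*, *DKO 2* or *DKO 5* (with 1348 to 1804 genes at an unadjusted p under 0.05), 1 without *DKO 1*, 2 without *DKO 3*, 306 without *WT 2* and 441 without *DKO 4*. Without replicate 1 of both genotypes it was 0 by edgeR and 209 by DESeq2. DESeq2 passed *Mucl2* (0.65) and *Prol1* (0.80), and without both of these libraries *Prol1* alone (0.71, adjusted p = 0.0273, against 0.102 for *Mucl2*). Its fit of *Mucl1* gave no p-value and is left out. The non-legacy form of edgeR's quasi-likelihood test called 116 genes and left the log2 fold changes of *Mucl2* and *Prol1* as they were. Their SE rose to 0.73 for *Mucl2* (adjusted p = 0.757) and 0.49 for *Prol1* (adjusted p = 0.505). With 1 library left out the edgeR log2 fold change of *Mucl1* ranged from -11.78 to 14.18 and its share difference from -1.01 to 1.97 percentage points. The *Mucl2* share difference ranged from 3.13 to 5.24, and was 3.61 without replicate 1 of both genotypes (exact permutation p = 0.0571).

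The log2 ratio of *Mucl1* to *Mucl2* ranged from -3.31 to 3.61 with 1 library left out, reversing without *WT 1* (3.61), *DKO 2* (0.60), *DKO 3* (0.40), *DKO 4* (0.61) or *DKO 5* (0.71). That of *Mucl1* to *Prol1* ranged from -3.47 to 3.57, reversing without *WT 1* (3.57), *DKO 2* (0.44), *DKO 3* (0.25), *DKO 4* (0.46) or *DKO 5* (0.54). That of *Mucl1* to *Smr2* ranged from -1.30 (without *DKO 1*) to 5.73, and that of *Mucl2* to *Prol1* from -0.26 (without *WT 3*) to -0.042. Those of *Mucl2* and *Prol1* to *Smr2* ranged from 1.46 to 2.97 and from 1.61 to 3.12, lowest without *DKO 3*, and were 1.84 and 1.995 with 2 added to each count. Deviations of same-numbered libraries correlated at 0.150, 0.298, 0.0739 and 0.0136, so the replicate numbers were not taken to pair the samples. In DKO the replicate numbers do not follow the order of the gland numbers in the labels. Neither this check nor a block by replicate number can therefore show whether libraries shared a litter or batch. With a replicate block the share differences were 4.02 for *Mucl2* and 1.99 for *Prol1*, both with an exact permutation p of 0.125, the smallest that test allows. The causes were not tested.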
